A study of Mus musculus with 6 samples.

Results

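The epithelial keratins Krt7, Krt8, Krt18, Krt19, Krt20 and Krt23 were followed in the small intestine of mice from which Fitm2, an endoplasmic reticulum protein of lipid droplet formation, had been deleted with tamoxifen. The 6 genes were chosen by name with their differences between genotypes and between days in these arrays already known, so those differences are given below as a description and without a test. All 6 were represented on the array and passed the intensity filter, among 13042 genes that did. They were 6 of 48 keratin genes measured, of which 18 others also passed the filter. Each member had 1 probe set (a group of short probes for 1 transcript), except Krt8 with 3. For Krt8 the brightest of these was used.

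Keratins are the intermediate filament proteins of epithelial cells. A filament is built from pairs of 1 type I and 1 type II keratin, and a keratin without a partner is usually degraded. Among the genes described here, Krt7 and Krt8 are type II, and Krt18, Krt19, Krt20 and Krt23 are type I. The filaments give intestinal epithelium mechanical strength, anchor to desmosomes and hemidesmosomes, and support the apical membrane below the brush border. Krt8 and Krt18 are also known to be made in larger amounts by stressed simple epithelia, as in injured liver and pancreas.

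RNA of the entire small intestine, flushed and frozen on day 2, 3 or 5, was hybridised to 6 Affymetrix arrays. Control mice were labelled L/L, and KO mice carried ROSA26CreERT2 on top of L/L. Tamoxifen, 100 µg per g on days 1, 2 and 3, is listed for every sample. In day order, L/L pools held 6, 6 and 8 mice and KO pools 7, 6 and 7. Each pool gave 1 array, so no group had a replicate. ROSA26CreERT2 is active in most tissues rather than in epithelium alone, and since the labels list no Cre for the controls, an effect of Cre itself and an effect of the deletion cannot be told apart. The Fitm2 probe set read 193 to 223 in the controls, against 120 to 127 in KO. Median intensity lay between 57.7 and 59.7 on the 6 arrays. The pools also differed in Xist, the transcript of the inactive X chromosome in females, which read 2433, 3126 and 3052 in L/L over the successive days, against 1090, 3030 and 1398 in KO. The part of this in any difference below was not tested.

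The genes lie in both mouse keratin clusters. Krt7, Krt8 and Krt18 are on chromosome 15, and Krt19, Krt20 and Krt23 on chromosome 11. In RefSeq on GRCm38.p6, Krt8 and Krt18 have no protein-coding gene between them, and Krt20 and Krt23 have none either. In each of these neighbouring pairs 1 gene differed widely between the genotypes on day 5 and the other little. The 250 bases before the annotated start of these 4 genes are shown for that reason, 5′ to 3′ on the strand of the gene, from RefSeq (GRCm38.p6). They are chr15:102004343-102004592 on the minus strand for Krt8, chr15:102027966-102028215 on the plus strand for Krt18, chr11:99438154-99438403 on the minus strand for Krt20 and chr11:99493121-99493370 on the minus strand for Krt23. Capitals mark bases of TATAAA, the core of a TATA box, read on either strand.
Krt8: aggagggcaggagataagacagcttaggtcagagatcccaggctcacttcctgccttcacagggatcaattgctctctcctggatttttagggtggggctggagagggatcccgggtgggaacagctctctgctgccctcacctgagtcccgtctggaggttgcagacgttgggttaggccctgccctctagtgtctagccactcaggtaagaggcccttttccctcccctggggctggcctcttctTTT
Krt18: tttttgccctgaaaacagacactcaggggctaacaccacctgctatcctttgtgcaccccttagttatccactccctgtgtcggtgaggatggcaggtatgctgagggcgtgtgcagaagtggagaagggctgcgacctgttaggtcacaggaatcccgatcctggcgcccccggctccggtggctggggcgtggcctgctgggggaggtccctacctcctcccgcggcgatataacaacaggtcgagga
Krt20: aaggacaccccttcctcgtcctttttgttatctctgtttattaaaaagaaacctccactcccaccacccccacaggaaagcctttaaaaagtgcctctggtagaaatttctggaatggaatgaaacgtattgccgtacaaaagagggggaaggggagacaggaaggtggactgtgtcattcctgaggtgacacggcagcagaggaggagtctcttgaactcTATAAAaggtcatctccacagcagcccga
Krt23: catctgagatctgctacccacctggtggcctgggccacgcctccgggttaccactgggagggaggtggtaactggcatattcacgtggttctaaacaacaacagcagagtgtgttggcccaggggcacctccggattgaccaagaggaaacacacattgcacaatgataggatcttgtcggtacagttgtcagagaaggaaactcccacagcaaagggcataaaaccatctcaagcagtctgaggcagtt

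A promoter sequence was matched for 5 of the 6 genes, all but Krt19. The window searched held 250 bases before and 50 after the start, on both strands, for the TATA box core (TATAAA), the GC box (GGGCGG), the AP-1 element (TGANTCA) and the CCAAT box (CCAAT). These letters are found in 13.6%, 35.7%, 7.81% and 37.4% of 32851 RefSeq promoter windows of the same length. Krt20 held TATAAA from base 29 before its start. Krt8 held it across the annotated start, where the plus-strand and minus-strand matches overlap, so that 3 of their letters fall in the printed stretch. Krt7 held 4 GC boxes and the other 4 genes with a sequence none. Krt18 and Krt23 held none of the 4 motifs. G and C made up 58% of the printed bases of Krt8, 60.4% of Krt18, 48% of Krt20 and 52.8% of Krt23.

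Krt18 and its main partner Krt8 parted over time. Krt18, the type I keratin that pairs with Krt8 in simple epithelia, read 2218, 2557 and 2404 in the L/L arrays of days 2, 3 and 5, against 2520, 3625 and 5516 in the KO arrays. The L/L arrays stayed within a narrow range, while KO was higher on each day and by a wider margin each time. KO exceeded L/L by factors of 1.14, 1.42 and 2.29 in day order (mean log2 difference 0.63 ± 0.52, SD over 3 days, n = 3). The groups overlapped, since KO on day 2 lay below L/L on day 3. In bulk tissue, more cells of a type and more RNA per cell cannot be told apart.

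Krt8, the main type II keratin of simple epithelia, was nearly level. The L/L arrays read 18163, 19007 and 18184, the KO arrays 18117, 18291 and 19181. Neither group was set apart from the other. In day order KO minus L/L came to -0.00, -0.06 and 0.08 on the log2 scale (mean 0.01 ± 0.07, SD over 3 days, n = 3). The other 2 Krt8 probe sets differed by 0.09 and 0.04 on day 5. The genotype difference of Krt18 exceeded that of Krt8 by 0.19, 0.56 and 1.12 on the log2 scale on the 3 days.

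The Krt8 value has a limit. Its probe set was brighter than 99.96% of all probe sets, and its log2 range over the 6 arrays was 0.08. Among 65 genes with a mean intensity of at least 11585, taken on the log2 scale, 2 differed at least 1.5-fold in either direction on day 5, or 3.08%, against 8.29% of all genes. Their log2 differences ran from -1.55 to 0.59, and the median size of the difference was 0.118, against 0.161 over all genes. The set of 65 genes began well below the intensities of Krt8 and included 2 of the members, Krt8 and Krt20. The Krt20 probe set was brighter than 99.82% of all probe sets. Whether the scanner or the probes had come near their ceiling for Krt8 or Krt20 was not tested.

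**Figure D1:**
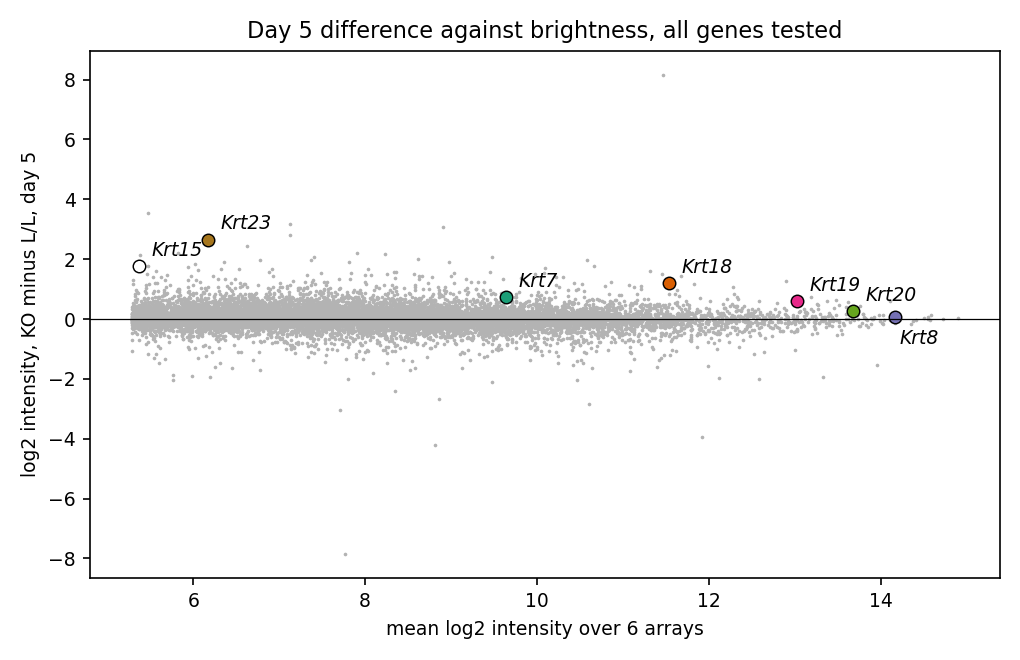
Log2 difference between KO and L/L on day 5 (vertical axis) against mean log2 intensity over the 6 arrays (horizontal axis). Grey points are the 13042 genes tested, filled circles the 6 keratins and the open circle Krt15; Krt23 (2.65) and Krt18 (1.20) stand above the mass of genes and Krt8 (0.08) lies at the bright end near 0.

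Krt23 showed the widest difference of the group, and on day 5 only. Krt23 is a type I keratin that is scarce in healthy tissue and known from injured liver and some carcinomas. The L/L arrays of days 2, 3 and 5 read 56.3, 61.5 and 43.2, the KO arrays 48.3, 70.0 and 272. The KO array of day 5 was far above the other 5 arrays, which lay between 43.2 and 70.0, and KO was the lower of the pair on day 2. The ratio of KO to L/L in day order was 0.857, 1.14 and 6.29 (log2 -0.22, 0.19 and 2.65). The mean log2 difference of 0.87 ± 1.56 (SD over 3 days, n = 3) was smaller than its spread, and without day 5 it was -0.018. On day 5 Krt23 ranked 6 from the highest difference among 13042 genes, and Krt18 ranked 98. L/L intensities of Krt23 were close to the filter threshold of 38.9, so the fold depends on the scale near the array's floor: with an offset of 32 added before log2 the day 5 difference was 2.01.

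Krt7, the second type II keratin, was higher in KO on day 5. It is a keratin of ducts and of simple epithelia outside the villus. Over the days, L/L read 773, 776 and 624, while KO read 815, 810 and 1032. KO was the higher on all 3 days, as it was for 22.1% of all genes, but narrowly so on days 2 and 3. The fold was 1.05, 1.04 and 1.66 by day (mean log2 difference 0.29 ± 0.38, SD over 3 days, n = 3). Both arrays of day 5 moved away from the earlier days, L/L downwards and KO upwards.

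Krt19 and Krt20 differed on day 5 through a low L/L value rather than a high KO value. Krt19, a type I keratin found along the whole crypt and villus, read 8812, 9534 and 5639 over the L/L arrays, against 9186, 9170 and 8497 over the KO arrays. The low value was L/L on day 5, and the other 5 arrays lay between 8497 and 9534. The fold of KO over L/L was 1.04, 0.962 and 1.51 by day (mean log2 difference 0.20 ± 0.35, SD over 3 days, n = 3). Krt20, the type I keratin of differentiated villus cells, read 13942, 12817 and 11364 over the L/L arrays, with 13607, 13321 and 13609 for KO. Here again KO was flat and L/L was lowest on day 5. The fold was 0.976, 1.04 and 1.20 by day (mean log2 difference 0.09 ± 0.15, SD over 3 days, n = 3).

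**Figure D2:**
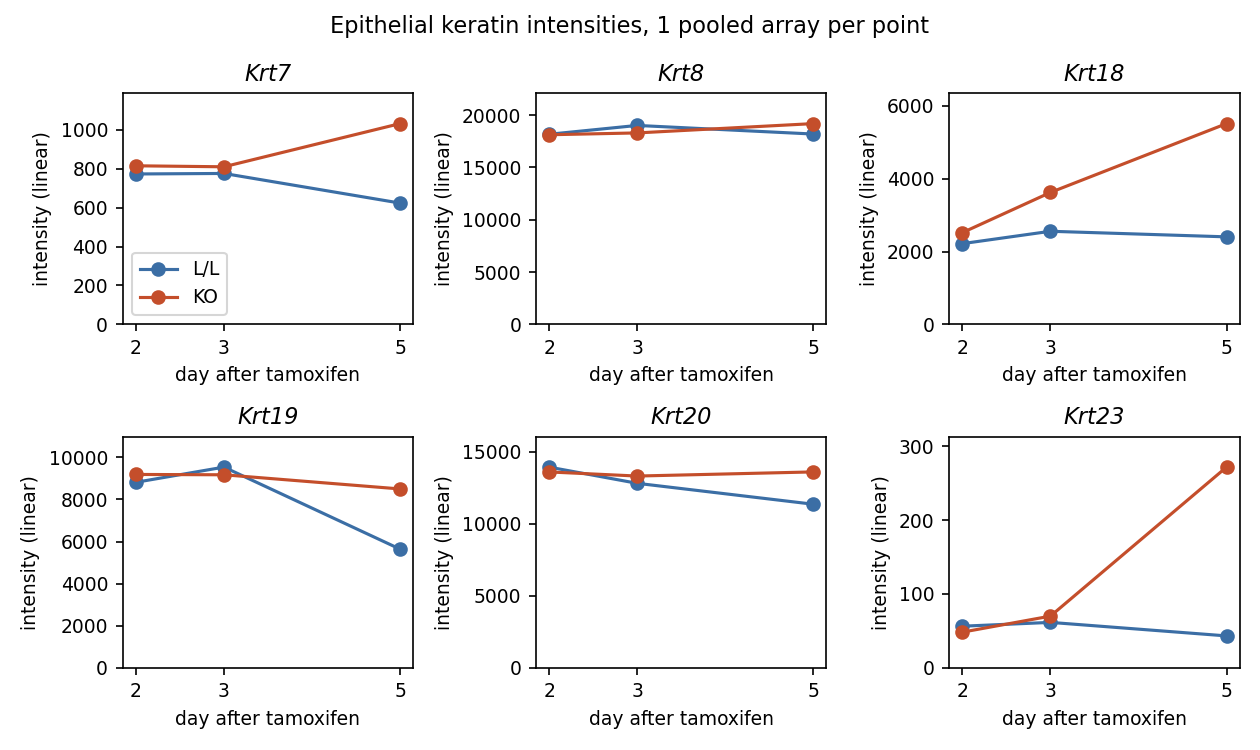
Intensity (linear scale from 0, a separate scale for each gene) of the 6 keratins on days 2, 3 and 5, with 1 pooled array per point, L/L in blue and KO in red. Krt18 and Krt23 climb in KO to 5516 and 272 on day 5, Krt8 stays between 18117 and 19181 in both genotypes, and the day 5 gap of Krt19 comes with the low L/L value of 5639.

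Counted by day, no member was 1.5-fold or more higher in KO on day 2 or day 3, where 0.429% and 1.1% of all genes were. On day 5 the count was 4 of 6 (Krt23, Krt18, Krt7 and Krt19), against 5.19% of all genes. The value of Krt19, 1.507-fold, lay just above that limit, and with median centring of the arrays (log2 0.57) it fell below, which left 3 of 6. At 2-fold the day 5 count was 2 of 6, against 1.28% of all genes. No member was 1.5-fold lower in KO on any day, and on day 5 only 404 of all 13042 genes were. The median log2 difference of the 6 genes was 0.03, 0.06 and 0.66 on days 2, 3 and 5, against 0.01, -0.01 and 0.02 over all genes. KO was the higher for 3, 4 and 6 members in day order, and the matching share of all genes was not counted. With day 5 left out, the mean log2 difference came to 0.34 for Krt18, 0.069 for Krt7, 0.010 for Krt20 and 0.0018 for Krt19. Krt7 and Krt18 were higher on all 3 days, as were 22.1% of all genes. Since the genes were chosen with these values known, the counts describe them and support nothing further.

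**Figure D3:**
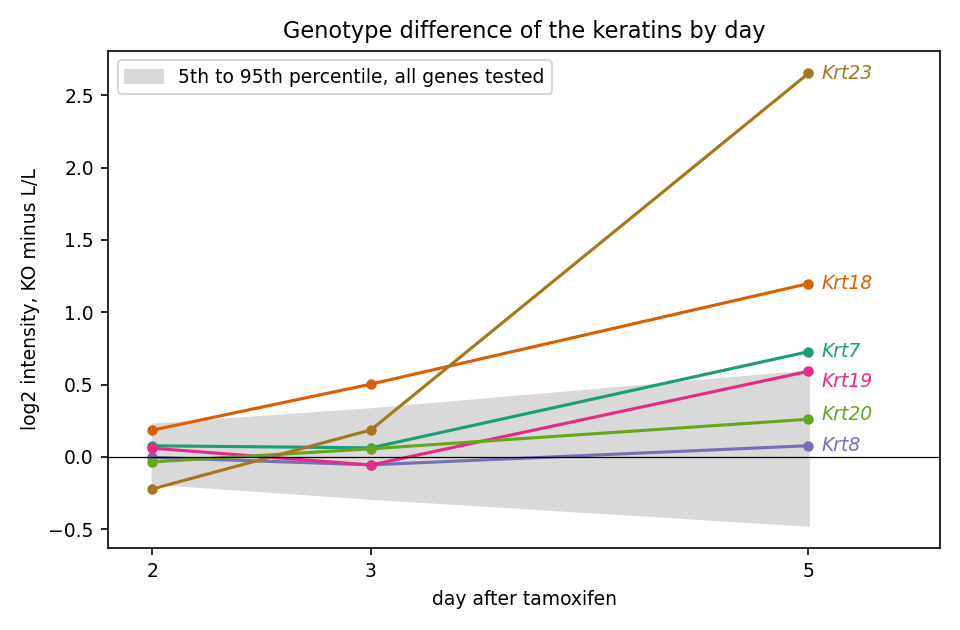
Log2 intensity of KO minus L/L (vertical axis) for each keratin by sampling day (horizontal axis, labelled day after tamoxifen). Tamoxifen is listed on days 1, 2 and 3. The grey band is the 5th to 95th percentile of all 13042 genes. On day 5 the band runs from -0.47 to 0.59; Krt23, Krt18 and Krt7 lie above it, Krt19 at its upper edge, and Krt20 and Krt8 inside.

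Within L/L the members were not constant over the days. From day 3 to day 5 Krt19 was 1.69-fold lower, the 1 member of 6 at 1.5-fold or more, against 1.42% of all genes. Krt23 was lower by 1.42-fold, Krt7 by 1.24-fold and Krt20 by 1.13-fold, while Krt18 and Krt8 were lower by 1.06-fold and 1.05-fold. From day 2 to day 3 no L/L difference of a member reached 1.5-fold, and the log2 values ran from -0.12 for Krt20 to 0.21 for Krt18. The median of the 6 genes was -0.24 on the log2 scale from day 3 to day 5, against -0.03 over all genes. These L/L differences and the KO differences on day 5 share the L/L array of day 5, so they are not separate observations.

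Within KO, Krt18 and Krt23 were the 2 members at 1.5-fold or more higher on day 5 than on day 3, at 1.52-fold and 3.88-fold, against 2.95% of all genes. Krt18 had already been 1.44-fold higher on day 3 than on day 2, and Krt23 1.45-fold. From day 2 to day 5 Krt18 was 2.19-fold and Krt23 5.63-fold higher, and Krt7 1.27-fold. Krt8 was 1.06-fold higher, Krt20 1.00-fold and Krt19 0.925-fold. From day 2 to day 5, then, Krt18 was higher mainly in KO, Krt19 and Krt20 were lower in L/L with KO lower or level, and for Krt7 and Krt23 KO was higher while L/L was lower (by 0.31 and 0.38 on the log2 scale).

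**Figure D4:**
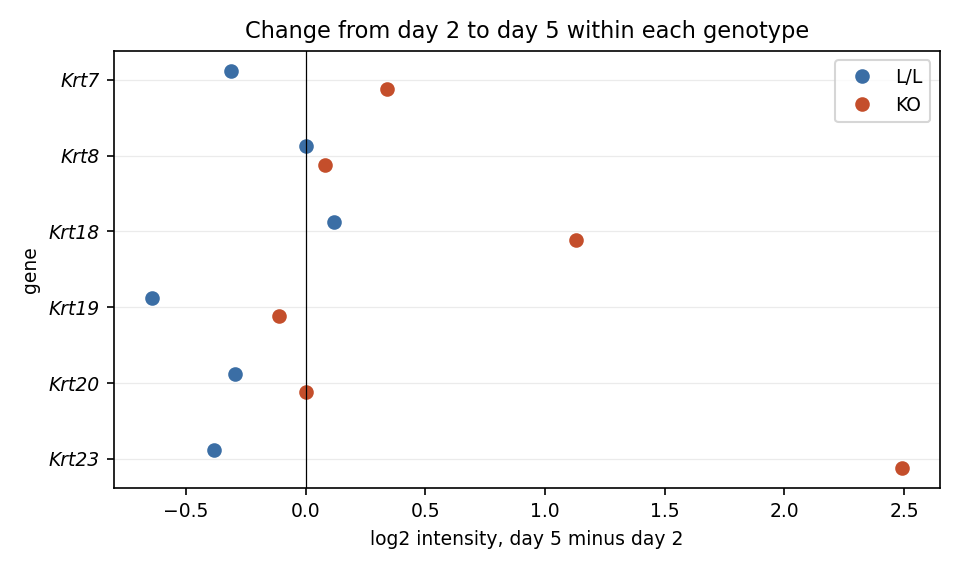
Change in log2 intensity from day 2 to day 5 (horizontal axis) within L/L (blue) and within KO (red) for each keratin, 1 array per day and genotype. KO lies to the right of L/L for all 6 genes; for Krt18 (1.13) and Krt23 (2.49) the KO change is far from 0, and for Krt19 the L/L change is (-0.64).

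Genes with a pattern most like that of a member were sought for Krt18 and Krt23, the 2 whose log2 range over the 6 arrays was at least 1, among 527 other genes with such a range. Unnamed gene models, Y-linked genes, Xist, Tsix and immunoglobulin or T cell receptor segments were passed over and are not among the 527. Likeness was Pearson's r of log2 intensity over 6 arrays, given as a description. Nearest to Krt18 were Mboat1 (r = 0.998), an acyltransferase of lysophospholipids, Arnt2 (0.993), a transcription factor, and Hs3st1 (0.992), a heparan sulfate sulfotransferase. Mboat1 read 106, 135 and 112 in L/L in day order, against 130, 246 and 469 in KO. Like Krt18, it was level in L/L and higher in KO at each later day. Nearest to Krt23 were Rnf43 (r = 0.996), a ubiquitin ligase that lowers Wnt receptors, Itm2a (0.985), a membrane protein, and Emp3 (0.985), an epithelial membrane protein. Rnf43 read 160, 175 and 149 in L/L, against 146, 185 and 348 in KO, with the KO array of day 5 alone standing apart.

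Other genes of the filament system were compared through lists and tested with limma over all 13042 genes, either for the genotype difference over the 3 days, which called 0.023% of all genes, or for its change with day, which called 1.23%. Without the intensity filter the second test called 0 genes (limma; 2475 at an unadjusted p under 0.05), so every call of change with day given here depends on that filter. Of the 18 other keratins above the filter, none passed the first test (2 at an unadjusted p under 0.05) and 1, Krt15, was past the threshold of the second. Krt15 is a type I keratin of basal cells in stratified epithelia and of some crypt cells. It read 35.9, 34.4 and 25.5 in L/L, against 35.4, 51.8 and 86.0 in KO. Its log2 difference was -0.02, 0.59 and 1.76 in day order, with a slope of 0.59 per day (limma, adjusted p = 0.0243, and 0.169 without the filter). All L/L arrays and KO on day 2 lay below the filter threshold, so Krt15 was tested only through its high KO arrays of days 3 and 5, and the call is no support for a difference. With L/L raised to the threshold, the ratio of KO to L/L on day 5 was 2.21, from 1 array per group. Krt12, known from the cornea, differed by 0.31, 0.26 and 0.63 without passing, and its dimmer probe set by 0.89, 0.44 and 1.11. The remaining keratins of largest mean difference were Krt84 (0.17), Krt10 (-0.15), Krt81 (-0.11) and Krt80 (-0.09). The median of the 18 genes was -0.02 on day 5, and their summed intensity that day was 1722 in L/L, against 1846 in KO.

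Transcripts of the proteins to which keratin filaments attach did not move together. Of 15 desmosome and cytolinker genes, none passed either test (2 and 4 at an unadjusted p under 0.05 in limma). Eppk1, which encodes epiplakin, a keratin-binding cytolinker, had a mean log2 difference of -0.41 and stood at -0.76 on day 5. Evpl, which encodes envoplakin, had a mean of -0.25 and stood at -0.36 on day 5. Ppl, which encodes its relative periplakin, had a mean of 0.20 and stood at 0.62. Pkp3, a desmosomal plakophilin, stood at 0.48 on day 5, and Plec, which encodes the linker plectin, at 0.46. Desmoplakin (Dsp), which ties keratin to the desmosome, was at -0.02. The median of the list was 0.08 on day 5. Of 6 hemidesmosome genes, none passed the first test (2 at an unadjusted p under 0.05) and 1 the second: Lamb3, a laminin chain of the basement membrane. Lamb3 read 196, 164 and 137 in L/L, against 230, 231 and 345 in KO, and its log2 difference increased by 0.38 per day (limma, adjusted p = 0.0447). This call was lost without the filter (adjusted p = 0.169) and with the days taken by order (adjusted p = 0.0689). Its partner chain Lama3 went the other way in value, at -0.43, -0.10 and -0.69, without passing.

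Of 10 other intermediate filament genes and 10 genes of keratin-binding proteins, none passed either test (limma; 0 and 1 at an unadjusted p under 0.05 for the first test, 2 and 1 for the second). Lmna, which encodes lamin A of the nuclear envelope, differed by 0.34, 0.03 and 0.99 on the 3 days. Lmnb1, another lamin gene, went the other way and stood at -0.34 on day 5. Des, the desmin gene of muscle, stood at 0.48 on day 5, and Vim, the vimentin gene of mesenchymal cells, at 0.26. Among keratin-binding genes, Sqstm1, whose protein gathers in keratin aggregates, was at 0.60 on day 5, and the chaperone gene Hspa8 at -0.00. The medians of these lists on day 5 were 0.15 and 0.14.

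**Figure D5:**
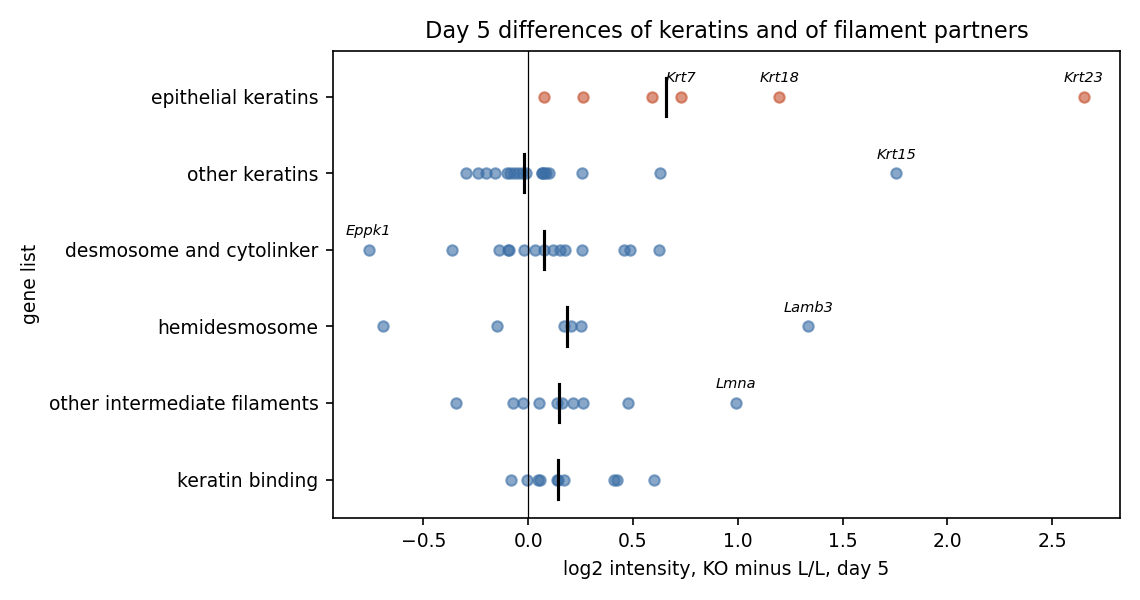
Log2 difference between KO and L/L on day 5 (horizontal axis) for each gene of the 6 lists named on the vertical axis; each circle is 1 gene and the black bar is the median of the list. The median of the 6 epithelial keratins is 0.66, that of the 18 other keratins -0.02, and genes at 0.7 or more in size are named.

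Markers of the cells that could carry these keratins moved as follows. All 10 general epithelial markers were measured and none passed either test in limma (0 at an unadjusted p under 0.05 in both). Their summed intensity was 77453 to 79929 in L/L and 77508 to 78588 in KO, and the median log2 difference on day 5 was 0.00. Bright genes such as Epcam, Lgals4, Vil1 and Cldn7 make up most of that sum. The part of epithelial share in the keratin differences was not tested. Of 11 enterocyte markers, Ada alone passed the test of change with day (1.45 on day 5), and the list's median there was 0.10. Proliferation markers of the crypt had a median of -0.46 on day 5, with Ccnb2 (-1.07) and Birc5 (-0.97) past that test among 10. Of 8 stem cell and Wnt-linked crypt genes, Olfm4 (-1.97) decreased and Sox9 (1.43) and Rnf43 (1.23) increased with day relative to L/L. Summed, this list ran from 7341 to 8164 in L/L and from 3974 to 8218 in KO. The low KO sum is that of day 5, when Olfm4 alone read 6061 in L/L, against 1545 in KO. The list's median log2 difference that day was 0.04.

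Of 9 markers of regenerating epithelium on the array, 8 passed the filter. Of these, 7 were at least 1.5-fold higher in KO on day 5, against 5.19% of all genes, with a median of 0.17, 0.21 and 0.97 by day, and S100a6 (1.61 on day 5) and Clu (0.83) passed the test of change with day. Their summed intensity was 4707 to 5197 in L/L and 4859 to 11871 in KO. Anxa1 (1.52) and Cd44 (1.91) had day 5 values of similar size without passing. This list was chosen with earlier results of these data known, so its count is a description and supports nothing further. At the same fold on day 5 were also 4 of 4 Paneth, 4 of 6 myeloid, 4 of 7 mesothelial and 4 of 7 enteroendocrine genes. In the other direction, 4 of 10 proliferation markers were at least 1.5-fold lower, against 404 of all 13042 genes. Mesothelium, the covering layer of the gut, is also known for Krt7, Krt8, Krt18 and Krt19. Of its 7 measured markers, Lrrn4 (1.68 on day 5), Wt1 (1.13, with 3 arrays under the filter threshold) and Gpm6a (0.64) passed that test. The list's median was -0.20, -0.01 and 0.64 by day. Wt1 read 36.3, 49.6 and 32.9 in L/L, against 31.7, 50.6 and 72.0 in KO. It passed the filter only through its high KO array of day 5, so its call is no support for a difference. The summed intensity of these markers was 617 to 849 in L/L and 724 to 985 in KO, and Msln read 69.8 in L/L, against 117 in KO, on day 5. The part of regenerating or mesothelial cells in the keratin differences was not tested.

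Cells of stratified epithelium and pancreas had little signal. Of 10 stratified markers 5 passed the filter, with a median of -0.09 on day 5 and summed intensities of 314 to 451 in L/L and 327 to 469 in KO; Krt14, Krt13, Krt4, Trp63 and Ivl stayed below it, and Sprr1a passed the test of change with day downwards (-0.77 on day 5). Of the 4 pancreatic genes above the filter, Sox9, also on the crypt list, alone passed; the summed intensity was 402 to 490 in L/L and 457 to 639 in KO. Of 7 enteroendocrine genes, Chga, Chgb, Gcg and Gip passed the test of change with day, and the median on day 5 was 1.02. None of 4 Paneth cell genes or 7 goblet cell genes passed either test (limma; 4 and 1 at an unadjusted p under 0.05 for the first, 3 and 0 for the second), with medians of 1.03 and 0.09 on day 5. The tuft cell median was 0.12. Outside the epithelium the day 5 medians were 0.90 for myeloid cells (Lyz2 passed), 0.47 for endothelium, 0.43 for fibroblasts, 0.23 for smooth muscle, -0.23 for T cells and 0.01 for B cells. No marker list had a gene past limma's test over the 3 days (0 to 4 genes a list at an unadjusted p under 0.05). Their part in the keratin differences was not tested.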

How the data were processed

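The deposited table gave 1 processed intensity per probe set and array, on a linear scale from 3.82 to 31146. Partek and RMA are named, without role or version, in the submitters' processing notes; how the deposited intensity was normalized is not stated. The test design left the scale to be read from the table; log2 was taken with no pseudocount and no further normalization. Of 45101 probe sets, 64 were controls, and in the platform annotation 34945 had 1 gene, 932 several and 9160 none listed; 34741 symbols were updated through gene IDs to GRCm38.p6. Each gene was represented by its probe set of highest mean log2 intensity, and genes were kept when that mean exceeded the 40th percentile of probe sets (log2 5.28, intensity 38.9).

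Genotype, with day as a factor, and the product of genotype and centred day were fitted to all 13042 genes with limma 3.58.1 in R 4.3.3 (2 and 1 residual degrees of freedom, priors of 3.03 and 4.76; two-sided, Benjamini-Hochberg at 0.05). Days serve as the repeats, so these p-values measure only how far the differences varied between days, or departed from a straight line. The fitting code was tested on simulated data. Single-day differences have 1 array per group and no test. The number of arrays, 6, limits precision.

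The members and all lists were chosen with earlier results of these data known. Named were all members, and from each list at most 6 genes of largest mean difference over the 3 days and those past a test. Outside this rule, Dsp, Vim and Hspa8 were named for their roles, and Epcam, Lgals4 and Cldn7 for their brightness. Msln, Anxa1 and Cd44 met the rule and were picked from it for their roles. All of these choices were made after the values were seen. Alternatives covered probe set choice, filter, offset, scaling, variance settings, day terms and leaving out each day.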

Additional observations from a re-analysis of the deposited data

Results flagged for a closer look

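The 19 genes below, from the lists on keratin partners and cell types, passed limma's test of change with day, the interaction of genotype and day. The change of the log2 difference per day was 0.59 for Krt15, 0.38 for Lamb3, 0.46 for Ada, 0.35 for Clu, 0.52 for S100a6, 0.46 for Sox9, 0.47 for Rnf43, 0.63 for Lrrn4, 0.46 for Wt1, 0.33 for Gpm6a and 0.43 for Lyz2. It was 0.36 for Chga, 0.33 for Chgb, 0.33 for Gcg and 0.35 for Gip. It was negative for Olfm4 (-0.70), Sprr1a (-0.37), Birc5 (-0.33) and Ccnb2 (-0.33). Each rests on 3 daily differences and 1 residual degree of freedom, and without the intensity filter 0 genes were called. Krt15 had 4 of 6 arrays under the filter threshold and Wt1 had 3. The Krt15 and Wt1 calls are no support for a difference, as stated above.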

How the results depend on the processing

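The test over the 3 days called 3 genes, and 1 with the mean of all probe sets. Leaving out 1 day gave 0 to 2 calls, the 0 without day 3 with 606 genes at an unadjusted p under 0.05 in limma. The test of change with day was unstable: 160 genes were called, but 0 without the intensity filter (2475 at an unadjusted p under 0.05 in limma), 63 with the order of the days, 275 with the 60th percentile filter, 312 with median centring, 512 with trend and robust variance and 550 with an offset of 32. Krt15 lost its call without the filter (adjusted p = 0.169), and Lamb3 there (adjusted p = 0.169) and with the order of the days (adjusted p = 0.0689). Median centring left 3 members at 1.5-fold or more higher in KO on day 5, since Krt19 fell to 0.57 on the log2 scale. With a fold of 2 in place of 1.5, 2 members were higher in KO on day 5, 0 were lower in L/L on day 5 than on day 3, and 1 was higher in KO on day 5 than on day 3; median centring also gave 1 for the last of these counts. The members' mean differences over the days rest largely on day 5. Leaving out 1 day, that of Krt23 lay between -0.018 without day 5 and 1.42 without day 2. Without day 5 the mean went from 0.63 to 0.34 for Krt18, from 0.29 to 0.069 for Krt7, from 0.20 to 0.0018 for Krt19 and from 0.094 to 0.010 for Krt20. That of Krt8, 0.0060, turned to -0.030 without day 5 and to -0.0057 with median centring. The day 5 difference of each member kept its sign under the 5 scalings and probe set rules, from 0.05 to 0.14 for Krt8 and from 1.17 to 1.23 for Krt18. The single array per group limits every single-day value.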
